A study of Mus musculus with 6 samples.

Results

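Major histocompatibility complex (MHC) class I molecules were followed in mouse prostate cancer cells that carry the receptor for colony-stimulating factor 1 (CSF-1). The genes were the light chain B2m and 9 class I heavy chains: the classical H2-D1 and H2-K1, and the non-classical H2-Q2, H2-Q7, H2-T23, H2-M1, H2-Bl, Gm11127 and H2-M3. They were chosen by name, as every probe whose gene name in the array files is one of these 10 names. This gave 12 probes on 22 spots, of 55681 probes for 36163 gene names on the array. All 12 stood clear of background on each array of some group, which was the condition for testing and was met by 34807 probes in all. H2-K1 and H2-Q2 have 2 probes each, and every probe was kept.

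N18-Fms (N18-CFMS in the sample labels) is a luciferase-expressing clone grown from a prostate tumor line of the TRAMP mouse and transduced with a retroviral c-fms cDNA, which encodes the CSF-1 receptor. All groups shared this line, so the data describe 1 clone, sorted for the receptor, in medium with serum and dihydrotestosterone. There were 2 arrays of unstimulated cells, labelled as given vehicle, 2 arrays after 24 h and 2 after 48 h of recombinant mouse CSF-1 at 100 ng/mL. Total RNA came from 2 independent experiments, and each sample was hybridized alone, with Cyanine 3, to an Agilent mouse expression array.

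A class I molecule is a heavy chain that holds a short peptide at the cell surface, folded together with beta-2 microglobulin, the product of B2m. Classical heavy chains vary between mouse strains and show peptides of the cell's own proteins to CD8 T cells. Non-classical heavy chains vary less and often have narrower ligands, and several are read by natural killer cells or unconventional T cells. Class I genes are known targets of interferons and of the transactivator Nlrc5, which acts at conserved boxes in their promoters. The arrays ask how this family stood before and after CSF-1.

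Heavy-chain genes are copies of one another, so the probe letters matter for reading the values. The 4 probes below are shown because they resemble each other most among those of the set. All have 60 bases, and their places are those of the array files (build mm9). The H2-K1 probe shown, A_55_P2049647, lies at chr17:34133984-34134043 on the minus strand, that of Gm11127 at chr17:36193272-36193331 (minus) and that of H2-Q2, A_51_P219789, at chr17:35482113-35482172 (plus). The H2-T23 probe is placed at chr17:36167338-36167574 (minus), a stretch longer than the probe itself. Capitals mark, in H2-K1, Gm11127 and H2-Q2, the longest run shared with the H2-T23 probe, and in H2-T23 the run shared with H2-K1.
H2-T23: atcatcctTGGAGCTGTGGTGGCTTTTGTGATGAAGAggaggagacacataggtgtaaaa
H2-K1: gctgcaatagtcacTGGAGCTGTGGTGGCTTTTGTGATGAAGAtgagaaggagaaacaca
Gm11127: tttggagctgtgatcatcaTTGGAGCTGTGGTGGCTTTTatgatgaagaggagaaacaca
H2-Q2: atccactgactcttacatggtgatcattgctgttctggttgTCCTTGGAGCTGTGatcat
H2-T23 and this H2-K1 probe share 29 bases, Gm11127 and H2-T23 share 20, and H2-Q2 and H2-T23 share 14. The Gm11127 probe also shares a run of 20 bases with a probe for H2-Q6, and the H2-Q7 probe shares 28 with a probe for H2-K2. By its RefSeq accessions the H2-Q7 probe stands for H2-Q9 as well. The probes of B2m, H2-D1, H2-Bl, H2-M1, H2-M3 and the other H2-K1 probe, A_51_P198434, share no run longer than 15 bases with any other probe on the array. How much signal passes between family members was not tested.

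B2m (probe at chr2:121978401-121978460, plus strand, mm9), the shared light chain, gave signals of 15730 and 21350 on the unstimulated arrays. After 24 h of CSF-1 they were 37390 and 47220, and after 48 h they were 64670 and 89220. All signals here are background-subtracted intensities in the scanner's units, replicate 1 first. The groups did not overlap, and the 48 h arrays were the highest. The fold changes below come from log2 signals set against the 75th percentile of each array, and ± gives the standard error from limma, fitted on all 6 arrays, with p-values adjusted over all probes tested (Benjamini-Hochberg). B2m was 2.28-fold higher at 24 h (log2 1.19 ± 0.19, limma adjusted p = 0.0211) and 4.16-fold higher at 48 h (log2 2.06 ± 0.19, adjusted p = 0.0056). With arrays centred on their medians the 24 h call was lost (log2 0.90, adjusted p = 0.0541). The RNA came from whole cultures, so more transcript per cell and more cells with the transcript cannot be told apart.

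H2-D1 (chr17:35403886-35403945, plus), a classical heavy chain, rose from 180.3 and 262.7 in unstimulated cells to 1540 and 2357 at 24 h and to 6064 and 9242 at 48 h. Each 48 h array was above both 24 h arrays, and each 24 h array was above both unstimulated ones. The log2 differences from unstimulated cells were 3.12 ± 0.27 at 24 h (8.69-fold, limma adjusted p = 0.0054) and 5.11 ± 0.27 at 48 h (34.6-fold, adjusted p = 0.0017).

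H2-K1, the other classical heavy chain, was read by 2 probes that moved by different amounts. A_51_P198434 (chr17:34133055-34133114, minus), printed on 10 spots, averaged 19.2 and 22.6 in unstimulated cells, where only 3 and 1 of its spots were well above background. It reached 204.1 and 320 at 24 h and 988.3 and 1394 at 48 h, with all 10 spots between 891.7 and 1063 on the first 48 h array and between 1241 and 1511 on the second. Because the unstimulated level is only a bound, the rise was at least 11.6-fold at 24 h (limma adjusted p = 0.0030) and at least 53.7-fold at 48 h (adjusted p = 0.0012). That bound holds for the processed signal and sets each unstimulated array at its dimmest signal well above background, or at the probe's own signal where that is higher. After normexp correction, which adds an offset of 50 to every signal, the log2 differences of this probe were 1.77 and 3.68, and in the authors' log2 values they were 3.07 and 5.30, all with the call kept. A_55_P2049647, whose letters are printed above, gave 186.5 and 217.6, then 531.9 and 760.1, then 1839 and 2442. It was 3.13-fold higher at 24 h (log2 1.65 ± 0.19, limma adjusted p = 0.0104) and 10.57-fold higher at 48 h (log2 3.40 ± 0.19, adjusted p = 0.0018). At 48 h its 95% interval, 2.91 to 3.89 on the log2 scale, lay below that fitted for A_51_P198434, 5.22 to 6.42. The direction was the same for both probes, and the size of the H2-K1 change was not settled by them.

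**Figure D1:**
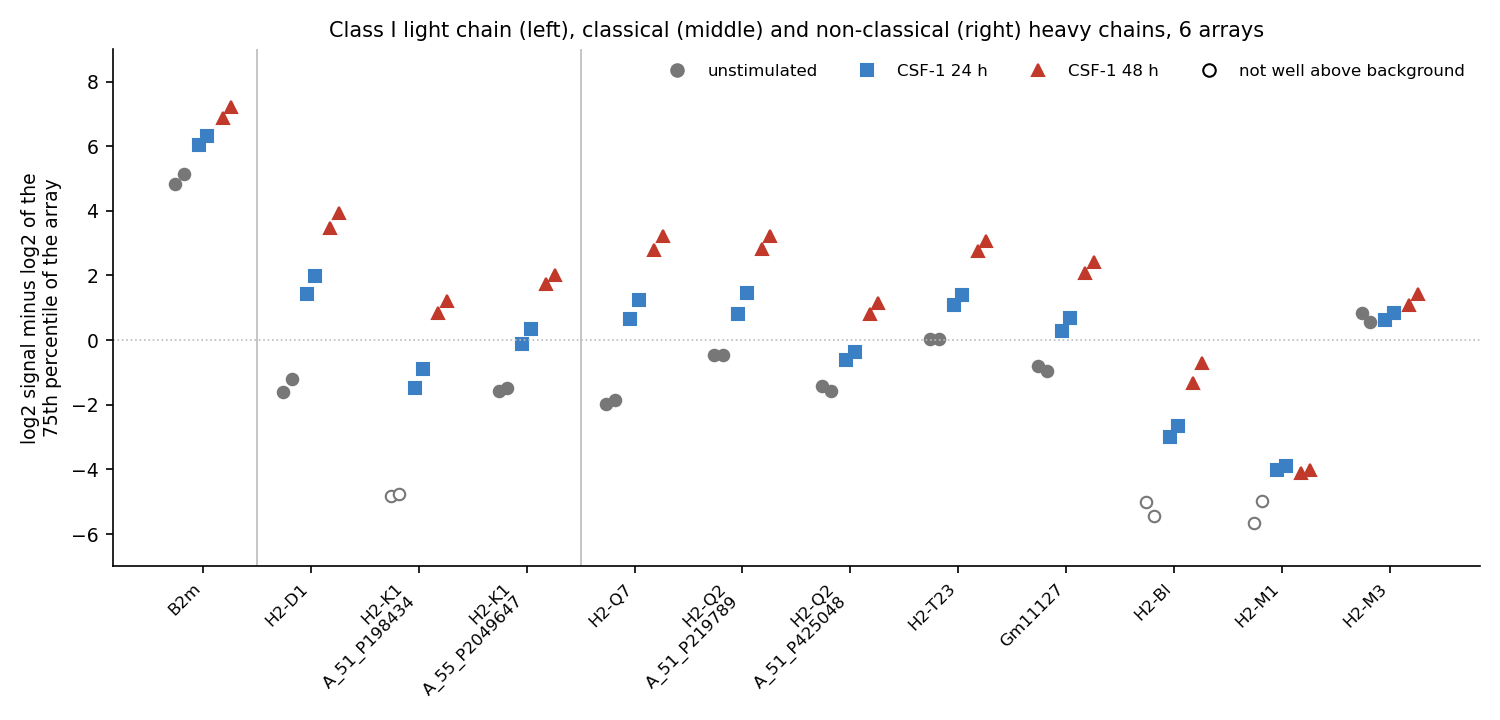
Level of each class I probe on each of the 6 arrays, as log2 signal minus the log2 of the array's 75th percentile (y axis), for unstimulated cells (gray circles), CSF-1 for 24 h (blue squares) and CSF-1 for 48 h (red triangles); open symbols were not well above background. Heights are comparable between arrays for 1 probe, not between probes. For 11 of the 12 probes both 24 h arrays lie above both unstimulated arrays, and H2-M3 is the exception.

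Among the non-classical genes, H2-Q7 (chr17:35580315-35580374, plus), which encodes a chain of the Qa-2 antigen, changed most like H2-D1. Its signals were 139.9 and 168.2 in unstimulated cells, 898.6 and 1407 at 24 h, and 3831 and 5624 at 48 h. The log2 differences were 2.86 ± 0.25 at 24 h (7.28-fold, limma adjusted p = 0.0051) and 4.93 ± 0.25 at 48 h (30.4-fold, adjusted p = 0.0016), the latter 4.33 after normexp correction. H2-Q7 thus had a larger fitted change than the H2-K1 probe A_55_P2049647 at both times, so the classical and non-classical ranges overlapped.

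H2-Q2, another gene of the Q region, has 2 probes by name. Their places start 22106 bases apart in the files' coordinates, while the gene is 4458 bases long in RefSeq (GRCm38.p6). By these places the 2 probes cannot both lie in the gene, and which of them does was not tested. Both are given as H2-Q2 only because the files name them so, here and in the counts, medians and shares below. A_51_P219789, printed above, gave 402.3 and 439.4, then 1000 and 1646, then 3878 and 5577, a log2 rise of 1.60 ± 0.26 at 24 h (limma adjusted p = 0.0210) and 3.47 ± 0.26 at 48 h (adjusted p = 0.0030). A_51_P425048 (chr17:35460007-35460066, plus) gave 205.9 and 207, then 374.2 and 465.6, then 963.5 and 1341. For this probe the rise was 2.01-fold at 24 h (limma adjusted p = 0.0252) and 5.53-fold at 48 h (log2 2.47 ± 0.17, adjusted p = 0.0027). With median centring its 24 h call was lost (log2 0.72, adjusted p = 0.0745). On neither probe did the groups overlap.

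H2-T23 encodes the heavy chain of Qa-1, the ligand of the natural killer receptor CD94/NKG2A. Its probe gave 560.8 and 625.9 in unstimulated cells, 1203 and 1584 at 24 h, and 3766 and 5069 at 48 h. The changes were 2.31-fold (log2 1.21 ± 0.17, limma adjusted p = 0.0159) and 7.41-fold (log2 2.89 ± 0.17, adjusted p = 0.0019). Gm11127, a T-region class I gene known by its model number, gave 319.2 and 313.8, then 697 and 950.3, then 2344 and 3217. It was 2.55-fold higher at 24 h (log2 1.35 ± 0.19, adjusted p = 0.0160) and 8.72-fold higher at 48 h (log2 3.12 ± 0.19, adjusted p = 0.0021). H2-T23 and Gm11127, with the H2-K1 probe that resembles theirs, had close values at both times, and what part the shared bases had in this was not tested.

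H2-Bl and H2-M1 were not well above background on either unstimulated array, so only bounds can be given. H2-Bl, a heavy chain named for the blastocyst and given no place in the genome by the files, read 17.1 and 14.1 in unstimulated cells, 71.1 and 95.6 at 24 h, and 221.9 and 365.5 at 48 h. Its rise was at least 3.73-fold (24 h, limma adjusted p = 0.0096) and at least 13.0-fold (48 h, adjusted p = 0.0023) on the processed signal, and after normexp correction the log2 differences were 0.96 and 2.17, both called. H2-M1 (chr17:36807013-36807072, minus), of a group of heavy chains known from sensory neurons of the vomeronasal organ, stayed dim. It read 10.8 and 19.3, then 35.3 and 39.9, then 32.3 and 37.6. The rise of H2-M1 was at least 1.70-fold at 24 h (adjusted p = 0.0256) and at least 1.59-fold at 48 h (adjusted p = 0.0316).. The 24 h call was lost when any 1 stimulated array was left out, and the 48 h call when any 1 array other than unstimulated replicate 2 was. Both calls were lost after quantile normalization. After normexp correction the log2 differences of H2-M1 were 0.44 and 0.32, and only the first passed. All 4 stimulated arrays lay near the limit of detection.

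H2-M3 (chr17:37411350-37411409, plus), which presents N-formylated peptides such as those of bacteria, did not pass at either time in the fit used here. Its signals were 990.1 and 908.7 in unstimulated cells, 884.5 and 1079 at 24 h, and 1182 and 1615 at 48 h. At 24 h the stimulated and unstimulated arrays overlapped, with a log2 difference of 0.03 (95% interval -0.42 to 0.48, limma adjusted p = 0.93). At 48 h both arrays were above the unstimulated ones, with a log2 difference of 0.55 (95% interval 0.096 to 1.003, adjusted p = 0.115). With arrays centred on their medians, which moved the median of all probes by -0.28 at 24 h, H2-M3 read -0.25 at that time (adjusted p = 0.44). At 48 h it passed with an intensity trend in the spread (limma adjusted p = 0.0383) and after normexp background correction (log2 0.52, adjusted p = 0.0461), and under no other alternative (adjusted p from 0.0748 to 0.354).

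In all, 11 of the 12 probes, for 9 of the 10 genes, rose at 24 h, and 11 rose at 48 h, and no mean was below that of unstimulated cells. Over all probes tested, 7.61% were called higher at 24 h and 5.62% at 48 h. H2-K1 A_51_P198434, H2-Bl and H2-M1 entered the test only through stimulated arrays, a filter that favors a rise, so their direction is no independent support. Where probes had to be well above background on all arrays, 8 of the 9 class I probes left were called higher at each time. Of the 29330 probes left in all, 2441 were called higher at 24 h and 2139 at 48 h. Both stimulated arrays were above both unstimulated arrays for 11 of the class I probes at 24 h, where 32.2% of all probes were, and for 12 at 48 h, where 23.6% were. With 2 arrays against 2, an exact permutation test of 1 probe cannot give a p below 0.333, so the calls rest on a spread shared across arrays and probes. The count at 24 h depended on single arrays and was lowest without either of the unstimulated arrays or without CSF-1 24 h replicate 2. Such fits leave 1 array in a group, and over all probes, too, fewer were called higher at both times. H2-D1, H2-Q7 and the H2-K1 probe A_51_P198434 passed at 24 h whichever array was left out, and each of the other 8 called probes missed the threshold without at least 1 of the arrays. With dim probes kept in the test the count was 5, beside 866 of 55378 probes called higher. With median centring it was 9, beside 1591 of 34807. Of all calls at 24 h, 60% were higher, against 25.1% with median centring, and at 48 h 48.3% against 39.2%. At 48 h, 10 or 11 probes passed whichever array was left out. The comparisons at 24 h and 48 h share the unstimulated arrays and are therefore not independent of each other.

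The median log2 difference of the 12 probes was 1.48 at 24 h and 3.26 at 48 h, beside 0.045 and -0.046 over all probes tested. For the 3 probes of classical genes the medians were 3.12 and 5.11, with ranges from 1.65 to 3.60 and from 3.40 to 5.82. For the 8 probes of non-classical genes they were 1.36 and 3.01, or 1.28 and 3.01 with the probes dim in unstimulated cells at their bound, and the ranges ran from 0.03 to 2.86 and from 0.55 to 4.93. The light chain stood at 1.19 and 2.06, below every classical heavy-chain probe at both times. No test of classical against non-classical genes was run, since the ranges rest on few probes that share sequence.

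**Figure D2:**
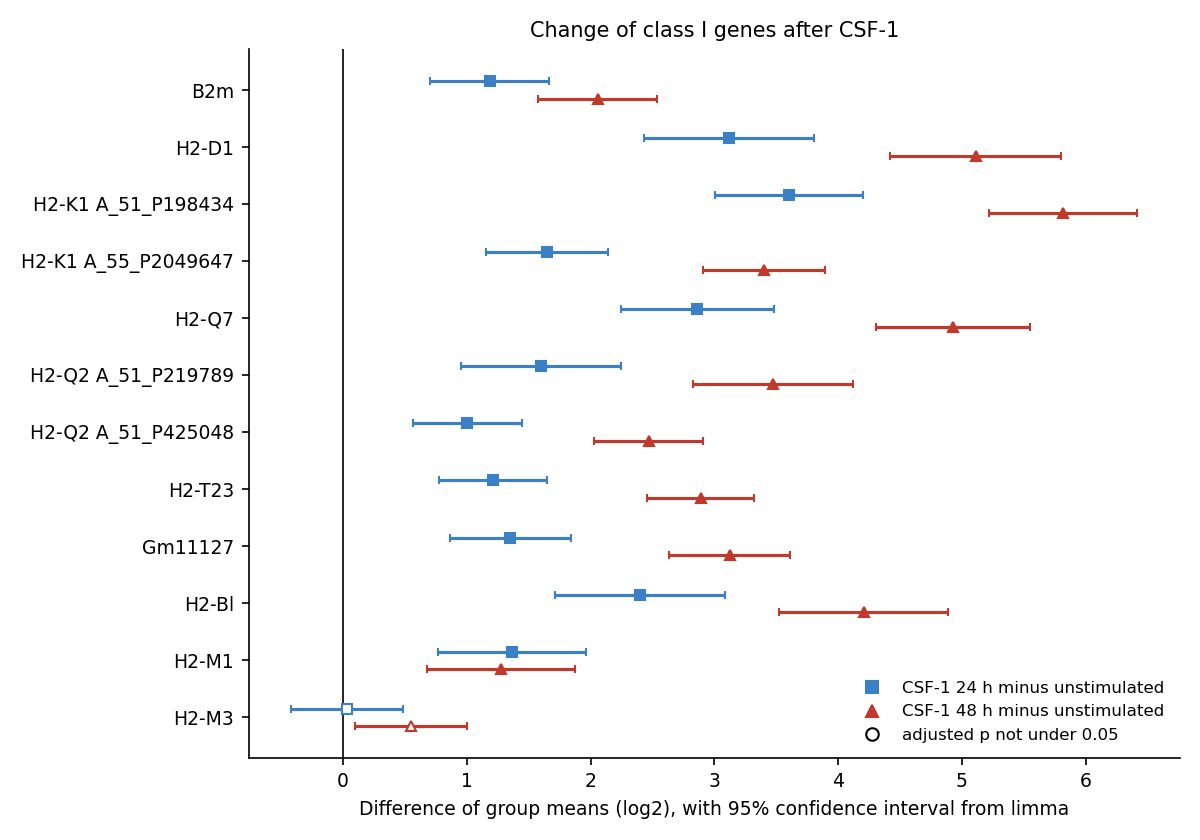
Difference from unstimulated cells on the log2 scale (x axis) for each class I probe (y axis) after 24 h (blue squares) and 48 h (red triangles) of CSF-1, with 95% confidence intervals from limma; open symbols did not pass an adjusted p of 0.05. Values of H2-K1 A_51_P198434, H2-Bl and H2-M1 are fitted to unstimulated signals not well above background, so they are not bounds. The interval of H2-M3 at 24 h spans 0.

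**Figure D3:**
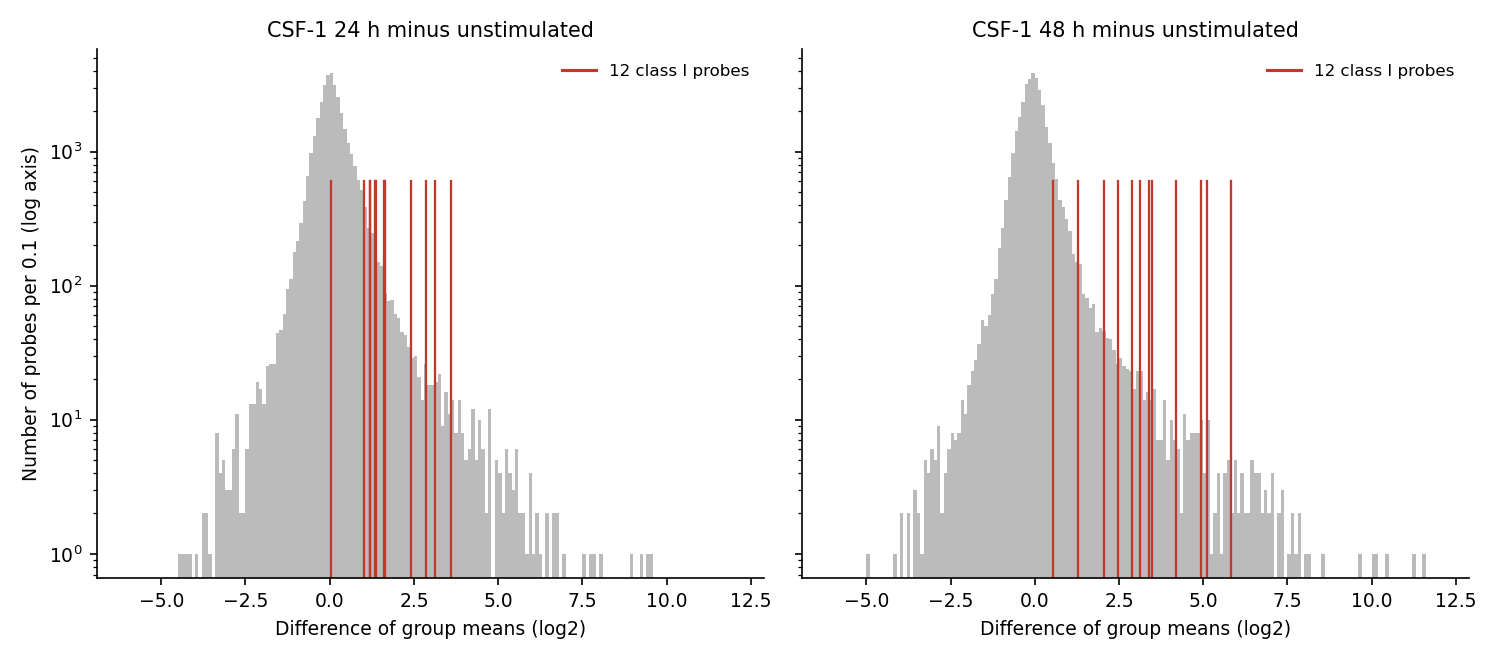
Histograms of the log2 difference from unstimulated cells at 24 h (left) and 48 h (right) for the 34807 probes tested (x axis), with the number of probes per 0.1 on a log axis (y axis); red lines are the 12 class I probes. The class I median is 1.48 at 24 h and 3.26 at 48 h, and other probes reach higher values at both times.

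From 24 h to 48 h the class I signals went on rising in the means of 11 probes, while H2-M1 read -0.09 on the log2 scale. The largest of these differences was that of H2-K1 A_51_P198434, 2.22 ± 0.24 on the log2 scale, followed by H2-Q7 at 2.06 ± 0.25 and H2-D1 at 1.99 ± 0.27. B2m differed by 0.87 ± 0.19 and H2-M3 by 0.52 ± 0.18. No class I probe passed the adjusted threshold between the times, with limma adjusted p-values from 0.131 to 0.89, and 0% of all probes did. At an unadjusted p under 0.05, 11 of the 12 were higher at 48 h, beside 3.98% of all probes, and for 11 both 48 h arrays were above both 24 h arrays, beside 13.4% of all probes. With an intensity trend in the spread, 10 class I probes passed the adjusted threshold, beside 0.566% of all probes, and with normexp background correction 9 did, beside 0.557%.

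As a share of the 48 h log2 change, the 24 h change was 61.0% for H2-D1, 61.9% and 48.4% for the H2-K1 probes, 58.1% for H2-Q7 and 57.6% for B2m. It was 46.0% and 40.7% for the H2-Q2 probes, 43.3% for Gm11127 and 41.9% for H2-T23, 57.1% for H2-Bl, 107% for H2-M1 and 5.8% for H2-M3. For H2-Bl, H2-M1 and the first H2-K1 probe these rest on unstimulated signals not well above background. These shares describe group means, have no error of their own and were not tested.

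Replicate 2 was above replicate 1 for all 12 class I probes at 24 h, by a median of 0.38 on the log2 scale, and for all 12 at 48 h, by a median of 0.34. In unstimulated cells this held for 7 of 12, with a median of 0.04. The first 24 h array was on a slide of its own, whereas the other 5 arrays shared a slide, so at 24 h the slide and the replicate cannot be told apart. At 48 h both replicates were on the shared slide. Leaving out the array on the separate slide lowered the number of class I calls at 24 h and at 48 h, and that over all probes as well.

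Promoter letters are shown for genes with larger and smaller changes. They are RefSeq sequences on build GRCm38.p6 for 9 of the 10 genes, in windows from 250 bases before to 50 bases after each start, and were not measured here. The stretches below run from 180 to 51 bases before the start, on the strand of the gene: B2m at chr2:122147507-122147636 (plus), H2-D1 at chr17:35262914-35263043 (plus), H2-K1 at chr17:34000384-34000513 (minus, the first of its starts by position), H2-Q7 at chr17:35438975-35439104 (plus), H2-M3 at chr17:37270054-37270183 (plus) and H2-T23 at chr17:36032752-36032881 (minus). Capitals mark matches, on either strand, to the core of the interferon regulatory factor (IRF) site, AANNGAAA, and to the NF-kB consensus.
B2m: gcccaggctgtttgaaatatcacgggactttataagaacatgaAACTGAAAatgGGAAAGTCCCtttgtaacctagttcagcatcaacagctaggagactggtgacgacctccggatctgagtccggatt
H2-D1: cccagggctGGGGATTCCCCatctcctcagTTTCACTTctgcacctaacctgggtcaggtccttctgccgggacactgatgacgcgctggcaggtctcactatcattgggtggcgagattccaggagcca
H2-K1: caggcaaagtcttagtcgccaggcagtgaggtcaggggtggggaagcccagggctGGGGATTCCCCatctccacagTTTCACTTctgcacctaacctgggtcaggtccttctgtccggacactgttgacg
H2-Q7: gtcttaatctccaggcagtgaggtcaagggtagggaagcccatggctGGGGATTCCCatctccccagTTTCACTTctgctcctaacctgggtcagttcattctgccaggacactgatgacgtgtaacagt
H2-M3: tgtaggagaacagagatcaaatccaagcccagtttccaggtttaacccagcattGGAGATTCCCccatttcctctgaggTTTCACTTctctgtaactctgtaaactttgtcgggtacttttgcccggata
H2-T23: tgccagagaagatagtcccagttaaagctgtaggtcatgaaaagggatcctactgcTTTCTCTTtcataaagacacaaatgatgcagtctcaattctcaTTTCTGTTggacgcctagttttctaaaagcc
H2-D1, H2-K1 and H2-Q7 show an NF-kB match followed by an IRF match. In H2-D1 the first ends at -161 from the start and the second begins at -150. H2-M3, whose 48 h call depended on the setting, shows the pair in the same order but further apart, at -117 and -101. In B2m the order is reversed, with the IRF match ending at -130 and the NF-kB match beginning at -126. H2-T23 shows IRF matches with no NF-kB match.

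Over the whole windows, the IRF core was found in 8 of the 9 genes, beside 23.9% of 32851 mouse promoter windows of the same length, and the missing gene was H2-M1. The NF-kB consensus was found in B2m, H2-D1, H2-K1, H2-Q7 and H2-M3, beside 4.51% of all windows. The core of the X2 box, TGACG, was found in the same 5 genes, beside 20.8% of windows. The CCAAT box was found in all 9, beside 37.4%, and the gamma-activated site, TTCNNNGAA, only in H2-M3, beside 8.3%. In H2-Q2 the IRF match overlaps a CCAAT match, and in H2-M3 the NF-kB match does. Matches are letters in a window and say nothing of whether a factor was bound.

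Class I molecules reach the surface mostly with peptide, so the genes of peptide supply and loading were read alongside, by the brightest probe of each gene. Of 13 such genes, all tested, 6 were higher and 1 was lower at 24 h, and 9 were called at 48 h, all higher, with median log2 differences of 0.78 and 1.35. Tap1 and Tap2 encode the transporter that carries peptides into the endoplasmic reticulum. Tap1 gave 10.58 and 10.45 in unstimulated cells, not well above background, then 66.9 and 77.3, then 89.1 and 154.5, a rise of at least 3.25-fold and 5.37-fold (limma adjusted p = 0.0052 and 0.0026). Tap2 gave 19.6 and 13.9, not well above background, then 116.9 and 165.2, then 574.4 and 857.8, and rose at least 6.28-fold by the earlier time and 32.1-fold by the later (adjusted p = 0.0068 and 0.0017). Tapbp, the bridge between the transporter and the heavy chain, rose by 1.53 and 2.37 on the log2 scale (adjusted p = 0.0071 and 0.0022), and its relative Tapbpl by 1.15 and 2.07 (adjusted p = 0.0233 and 0.0057). The gene lower at 24 h was Calr, a general chaperone, at -0.46 (adjusted p = 0.0499), named after its value was seen.

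Of 16 regulators of class I transcription, 15 were tested, and 4 were called at each time, all higher, with median log2 differences of 0.45 and 0.07. The first median was 0.28 with genes dim in unstimulated cells at their bound. Nlrc5, the class I transactivator, gave 5.45 and 20.1 in unstimulated cells, not well above background, 80.2 and 92.9 at 24 h, and 121.5 and 234 at 48 h. It rose at least 3.90-fold and 7.72-fold (limma adjusted p = 0.0341 and 0.0188). Irf1 rose by 1.25 and 2.08 on the log2 scale (adjusted p = 0.0291 and 0.0090), and Irf9, a subunit of the interferon-stimulated complex ISGF3, by 2.73 and 2.79 (adjusted p = 0.0053 and 0.0046). Irf2 gave -0.68 and -0.74 and passed at neither time (adjusted p = 0.51 and 0.48), with 1 unstimulated array at 955.5 and the other at 222.6. The fourth gene that rose was Stat2, another ISGF3 subunit, at 2.77 and 3.54 (adjusted p = 0.0029 and 0.0016), named after its values were seen.

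Other class I heavy chains of the H2 complex numbered 23 in the list, of which 19 were on the array and 11 were tested. Of these, 4 were called at 24 h and 7 at 48 h, all higher, and the medians were 0.45 and 0.90 on the log2 scale. H2-Q5 rose by 0.98 and 2.37 (limma adjusted p = 0.0308 and 0.0037) and H2-Q6 by 2.05 and 4.03 (adjusted p = 0.0104 and 0.0019). H2-Q4 and H2-Q8 passed at neither time, with log2 differences of 0.02 and 0.04 for H2-Q4 and 0.27 and 0.27 for H2-Q8. The probe read for H2-Q4 is named H2-Gs10 in the array files and was tied to H2-Q4 only by its RefSeq accession. Probes for H2-Q6 and H2-Q10 share runs of 20 and 19 bases with probes of Gm11127 and H2-Q2.

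**Figure D4:**
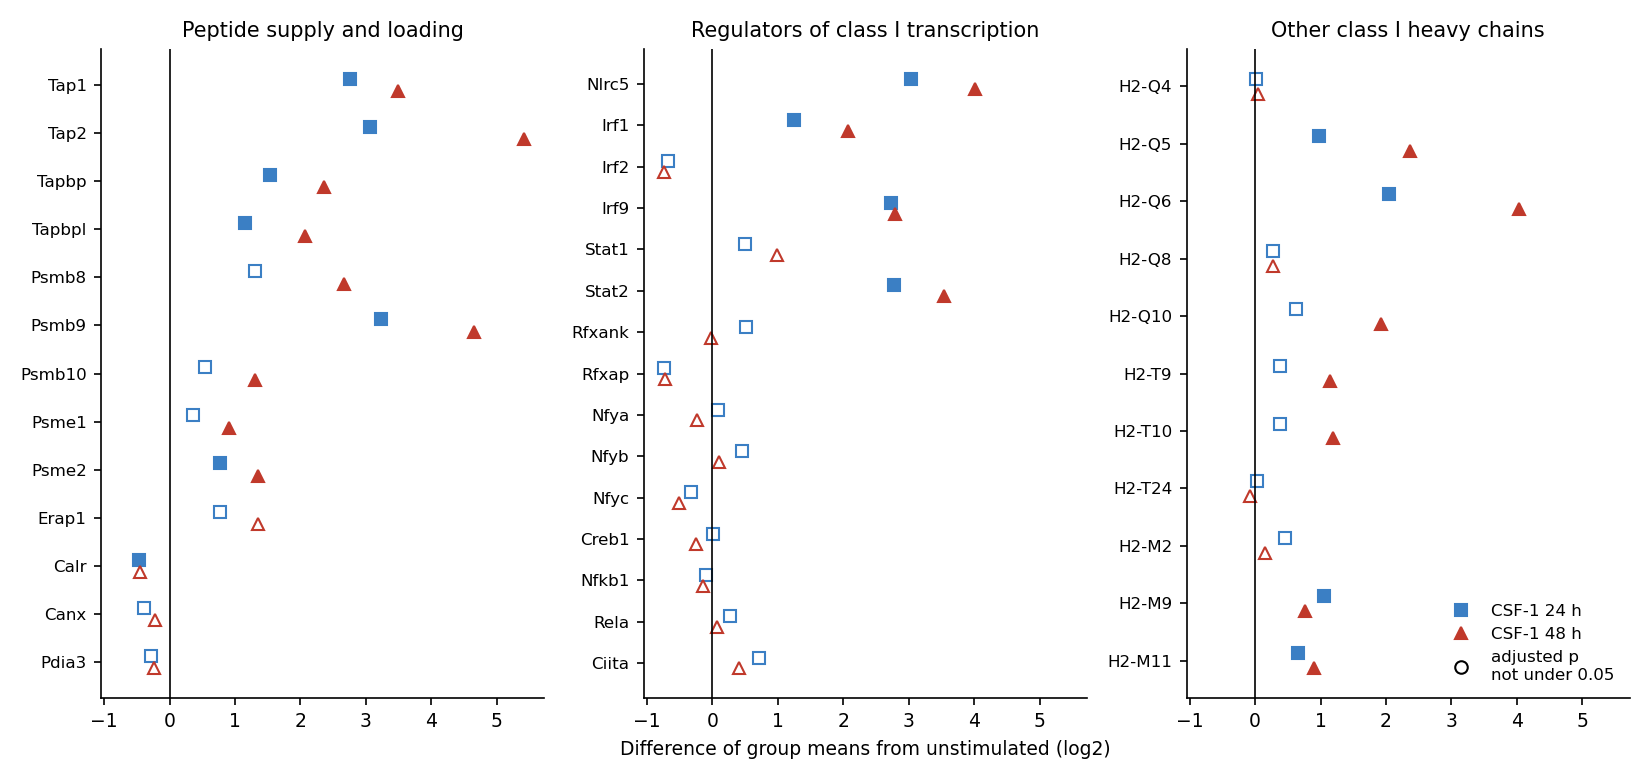
Difference from unstimulated cells on the log2 scale (x axis) for the tested genes (y axis) of peptide supply and loading, of class I regulators and of other class I heavy chains, after 24 h (blue squares) and 48 h (red triangles) of CSF-1; open symbols did not pass an adjusted p of 0.05. At 48 h, 9 of 13, 4 of 15 and 7 of 11 genes passed, all upward.

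Class I-like molecules outside the H2 complex, some of which fold without beta-2 microglobulin, were read in the same way. Of 18 listed, 10 were tested and 4 were higher at each time, with medians of 0.44 and 0.41. Cd1d2, Fcgrt and Azgp1 passed at neither time, with log2 differences from -0.07 to 0.32, while Procr, the endothelial protein C receptor, rose by 3.12 and 2.57 (limma adjusted p = 0.0020 and 0.0025). The other genes called were the stress-induced NKG2D ligands Raet1c and Raet1e at both times, H60c at 24 h and Raet1a at 48 h, named after their values were seen.

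In the MHC class II pathway, 8 of 11 genes were tested, and 0 passed at 24 h and 2 at 48 h. Those 2, named after their values were seen, were H2-DMb1 (log2 1.46, limma adjusted p = 0.0374) and the protease Ctss (at least 3.99-fold, adjusted p = 0.0091). H2-Ab1, H2-Eb2, H2-Oa and H2-Ob passed at neither time, and H2-Aa and H2-Eb1 were not well above background on any array. At an unadjusted p under 0.05 in the same limma fit, 3 class II genes were higher at 24 h, beside 5976 of all 34807 probes tested.

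The genes outside these lists whose pattern over the 6 arrays was closest to the brighter H2-K1 probe were found among 24606 genes by the root mean square distance of log2 values relative to the unstimulated mean. The closest were a probe without a gene name, A_55_P2100824, at 0.15 and a probe for an unnamed transcript on chromosome 6 at 0.20. Tcn2, a vitamin B12 carrier, Bst2, the interferon-inducible restriction factor tetherin, and Iigp1, an interferon-inducible GTPase, followed at 0.31, 0.31 and 0.32. Bst2 had log2 differences of 2.15 and 3.58, and Iigp1 of 2.04 and 3.59, beside 1.65 and 3.40 for H2-K1.

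The arrays had between 58.7% and 72.0% of spots well above background, 0 saturated spots, and replicate correlations between 0.9944 and 0.9954 across probes. Of the epithelial markers, Krt8, Krt18 and Krt19 were tested, while Cdh1 and Epcam, which define epithelium, stood clear of background on both arrays in no group. Krt8 rose at 48 h (log2 1.98, limma adjusted p = 0.0127). Of 14 macrophage and leukocyte markers, 7 were tested, and Cd14 and Mrc1 rose at both times, Mrc1 by 4.27 and 3.56. At an unadjusted p under 0.05, 4 of the 7 were higher at 24 h, among them Ptprc (log2 0.68) and Cd68 (log2 0.57). By the same threshold 2 were higher at 48 h and 2 were lower, Cd68 (log2 -0.51) and Itgam (log2 -0.65). From 24 h to 48 h, 4 were lower and 0 higher. Over all 34807 probes tested, 5976 were higher at 24 h and 4058 at 48 h at an unadjusted p under 0.05. Ptprc and Adgre1 were well above background on all 6 arrays, Laptm5 on 1, and Lyz2 and Spi1 on none. The summed signal of that list lay between 24530 and 24700 in unstimulated cells, 19860 and 23230 at 24 h and 16060 and 19790 at 48 h, most of it Itgam, which passed at neither time. Without Itgam the sum was between 1465 and 1681, 4168 and 4297, and 3050 and 3350 in the 3 groups, higher after CSF-1 at both times. Most of this sum, and of its rise, was Cd14 and Mrc1, not the list as a whole. Cd14 gave 1082 and 1288 in unstimulated cells and 2169 and 2163 at 24 h. Mrc1 gave 82.3 and 85.6, then 1510 and 1773. Of 8 T and NK cell markers, 5 were tested and 0 passed at either time (limma; 1 was higher at each time at an unadjusted p under 0.05), and Ifng was not well above background on any array. Their summed signal was between 14270 and 15720, 14970 and 16420, and 14520 and 19420 in the 3 groups, most of it Cd4. What part leukocyte transcripts had in the class I values was not tested.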

How the data were processed

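Per the labels, RNA of N18-Fms cells was labelled with Cyanine 3 and hybridized to 6 Agilent mouse arrays. The methods text gives 12 h and 24 h of CSF-1, whereas the labels give the 24 h and 48 h used here. The authors deposited, per the file headers and the submitters' processing notes, the output of Agilent Feature Extraction 11.0.1: a background-subtracted, detrended intensity per spot, not normalized between arrays, with mean and local background intensities and flags of 0 or 1. They also deposited log2 values for part of the probes, centred on an unstated baseline. Of 44323 probes in both, 99.8% of differences between arrays lay within 0.05 of those computed here.

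Outlier spots were left out, spots of a probe averaged, and log2 values set against each array's 75th percentile. Probes clear of background on every array of some group were tested with limma 3.58.1 in R 4.3.3 (all 6 arrays, 3 residual degrees of freedom, Benjamini-Hochberg, adjusted p under 0.05). A probe counted as clear of background where most of its spots carried that flag. The scripts were tested on simulated data. The number of arrays limits the precision. Replicates were 2 independent experiments.

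The members, lists and tests were chosen with earlier results of these data known. Named were all members and, from each other list, up to 4 tested genes in list order, with exceptions stated. Alternatives covered background correction, normalization, filter, probe choice, spread, arrays left out, replicate block, the authors' log2 values and the study's thresholds. Gene names came from the files and, by accession, RefSeq (GRCm38.p6), and promoter letters from RefSeq.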

Additional observations from a re-analysis of the deposited data

How the results depend on the processing

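Over the class I probes and comparisons, 372 of 453 values kept their direction and their side of the threshold, 39 lost the call, 39 gained it and 3 turned sign under alternatives that kept all arrays. With 1 array left out, 184 of 216 kept both, 30 lost the call and 2 turned sign. At 24 h the count of called class I probes, 11, fell to 5 with no filter on dim probes, where 866 of 55378 probes in all were called higher. With the methods' t-test after Benjamini-Hochberg adjustment the class I count was 0 at both times, as was the count over all 34807 probes. At an unadjusted p and 2-fold that test called 10 at each, beside 1397 and 1107 of all probes called higher. Between the times, where the count was 0, it was 9 with normexp background correction, 10 with an intensity trend, 9 at the study's thresholds and 9 with the methods' t-test at those thresholds. Over all 34807 probes, 194, 197, 287 and 141 were called higher under these settings, in that order. With 1 array left out the counts ran from 4 to 10 at 24 h, from 10 to 11 at 48 h, and stayed at 0 between them. Under median centring the log2 difference of H2-M3 at 24 h was -0.25 and that of H2-M1 between the times 0.094. The latter was 0.29 after quantile normalization. H2-M3 at 24 h was -0.11 without unstimulated replicate 2 and -0.08 without CSF-1 24 h replicate 2. The cause was not tested. With the replicate number as a term (replicate block), 11 probes were called at 24 h, 11 at 48 h and 0 between. The deviations of same-numbered arrays correlated across probes by 0.11, 0.10 and 0.17, and the labels do not say that a number marks a shared experiment. With 2 arrays a group, signal near background limits H2-M1, H2-Bl and H2-K1 A_51_P198434 in unstimulated cells to bounds.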
